A study of Mus musculus with 12 samples.

Results

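The genes of cholesterol and fatty acid synthesis were followed in mouse C3H10T1/2 cells in which microRNA miR-140 had been raised or blocked. The list held 34 genes, picked by name for their place in the pathway, with earlier results of these data known. Each gene was read from the probe set of its name with the highest mean over all 12 arrays. Of these, 33 were measured, out of 18193 genes with a probe set of their own in the annotation used here. No probe set carried the name Acat2. The measured members were 17 enzymes of the sterol branch, 5 genes of the sterol sensing machinery, 5 genes of sterol transport and 6 genes of fatty acid synthesis. For 32 of the 33, the probe set had a mean at or above the median of all probe sets.

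Cells make cholesterol from acetyl-CoA by way of mevalonate, squalene and lanosterol, and they make fatty acids from the same starting material. Most of these enzymes are switched on by the SREBP transcription factors, which SCAP carries out of the endoplasmic reticulum when membrane sterol is low and which the INSIG proteins hold back when it is high. In fibroblasts and mesenchymal cells the pathway feeds membrane growth, and its transcripts are known to move as a group when sterol supply changes.

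C3H10T1/2 is an established line of mouse embryonic fibroblasts that can be driven toward cartilage, bone or fat. The series held 12 Affymetrix arrays in 4 groups of 3. In the first experiment cells received siRNA-140, a synthetic duplex that mimics miR-140, or siRNA-96 as its control. In the second they received an LNA (locked nucleic acid) oligonucleotide that blocks the cells' own miR-140, called anti-miR-140 here, or one against miR-449, called anti-miR-449. All groups were transfected, none was left untreated, and each control acts on another microRNA, so every difference below compares miR-140 with miR-96 or miR-449 treatment. The labels give no dose and no time of harvest, and do not say whether replicates came from separate cultures. The p-values therefore measure only the spread between these samples, which may be technical.

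All values are on the log2 scale of RMA, the method that made the deposited values. Array medians lay between 3.95 and 4.02 in the siRNA experiment and between 4.32 and 4.38 in the anti-miR experiment, so levels were compared only within an experiment. Where a gene's arrays are listed, the 3 values of a group are those of replicates 1, 2 and 3 in that order, and replicate numbers carry no rank. Of 10 mesenchymal markers 9 had a mean at or above the median of all probe sets, Thy1 being the exception, and their list mean per array was 9.85 to 10.26 in the siRNA experiment and 10.58 to 10.66 in the anti-miR experiment. The means of the 3 measured adipocyte markers of 5 were 2.73 to 3.08 and 3.36 to 3.48 in the 2 experiments. Marker lists of epithelial, endothelial, haematopoietic and hepatocyte cells averaged 3.42 to 4.63 over all arrays. That of chondrocytes averaged 7.10 to 7.54, carried by Col2a1 and Sox9, while Acan (3.36 to 3.99) and Comp (3.99 to 4.79) were lower. At or above the median of all probe sets were 1 of 3 adipocyte, 2 of 5 epithelial and 1 of 4 endothelial markers measured. So were 2 of 3 haematopoietic, 2 of 3 hepatocyte and 3 of 4 chondrocyte markers. The siRNA arrays did not fall together by label. Each array was set against its group mean over the 22520 of 45037 tested probe sets with a mean at or above the median. There siRNA-140 replicate 3 moved with siRNA-96 replicates 2 and 3 (correlations of 0.641 and 0.624). Likewise siRNA-96 replicate 1 moved with siRNA-140 replicates 1 and 2 (0.568 and 0.606). Deviations within a group sum to 0, so these correlations are not independent of each other. The siRNA results are therefore given over all arrays. The counts, and the differences of many but not all genes, are given again with siRNA-96 replicate 1 and siRNA-140 replicate 3 left out. Those arrays were set aside with their values known, so a call made without them is not independent evidence.

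Across all 12 arrays, no gene of the pathway passed the test in either comparison. In a limma model of the 4 group means, with p-values adjusted by Benjamini-Hochberg over all probe sets and a threshold of 0.05, 0 of 33 members were called between siRNA-140 and siRNA-96, where 0% of all probe sets were called. Between anti-miR-140 and anti-miR-449 the count was again 0 of 33 against 0% of all probe sets, and for the difference of the 2 comparisons 0 of 33 against 0%. At an unadjusted p under 0.05, 0 members passed in the siRNA comparison against 5.09% of all probe sets (2292). In the anti-miR comparison 0 passed against 2.27% (1022). These counts, and the smallest p below, are for the probe set read per gene. Some other probe sets passed unadjusted. A Cyp51 one differed by 0.35 in the siRNA comparison (limma p of 0.0413). An Hsd17b7 one differed by 0.22 in the anti-miR comparison (limma p of 0.0458). Neither passed after adjustment. The members' smallest limma p was 0.0555 (adjusted 0.88) in the siRNA comparison and 0.201 (adjusted 1) in the anti-miR comparison. With each experiment's 6 arrays fitted alone, the smallest limma p was 0.112 (adjusted 0.997) for siRNA and 0.0409 (adjusted 0.974) for anti-miR.

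The fitted differences were small. The members' median log2 difference was 0.07 for siRNA-140 minus siRNA-96, beside 0.02 over all probe sets, with 27 members above 0 and 6 below. Among the sterol enzymes 15 of 17 were above 0, with a median of 0.10. This lean rested in part on 1 array, since without siRNA-140 replicate 2 the members' median was -0.0033. In the anti-miR comparison, anti-miR-140 minus anti-miR-449, their median was -0.02, beside -0.0033 over all probe sets, with 9 members above 0 and 24 below, and all 6 fatty acid genes below 0. Taking the mean of all probe sets of each gene turned that median to 0.0067. The 95% intervals of single members reached from -0.98 to 1.04 in the siRNA comparison and from -0.87 to 0.66 in the anti-miR comparison. That fit takes 1 spread per probe set from both experiments, so the wider siRNA spread also widens the anti-miR intervals. Fitted on the 6 arrays of each experiment alone, the intervals reached from -1.13 to 1.24 (siRNA) and from -0.62 to 0.30 (anti-miR). A miss of the threshold thus leaves room for changes within these intervals.

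**Figure D1:**
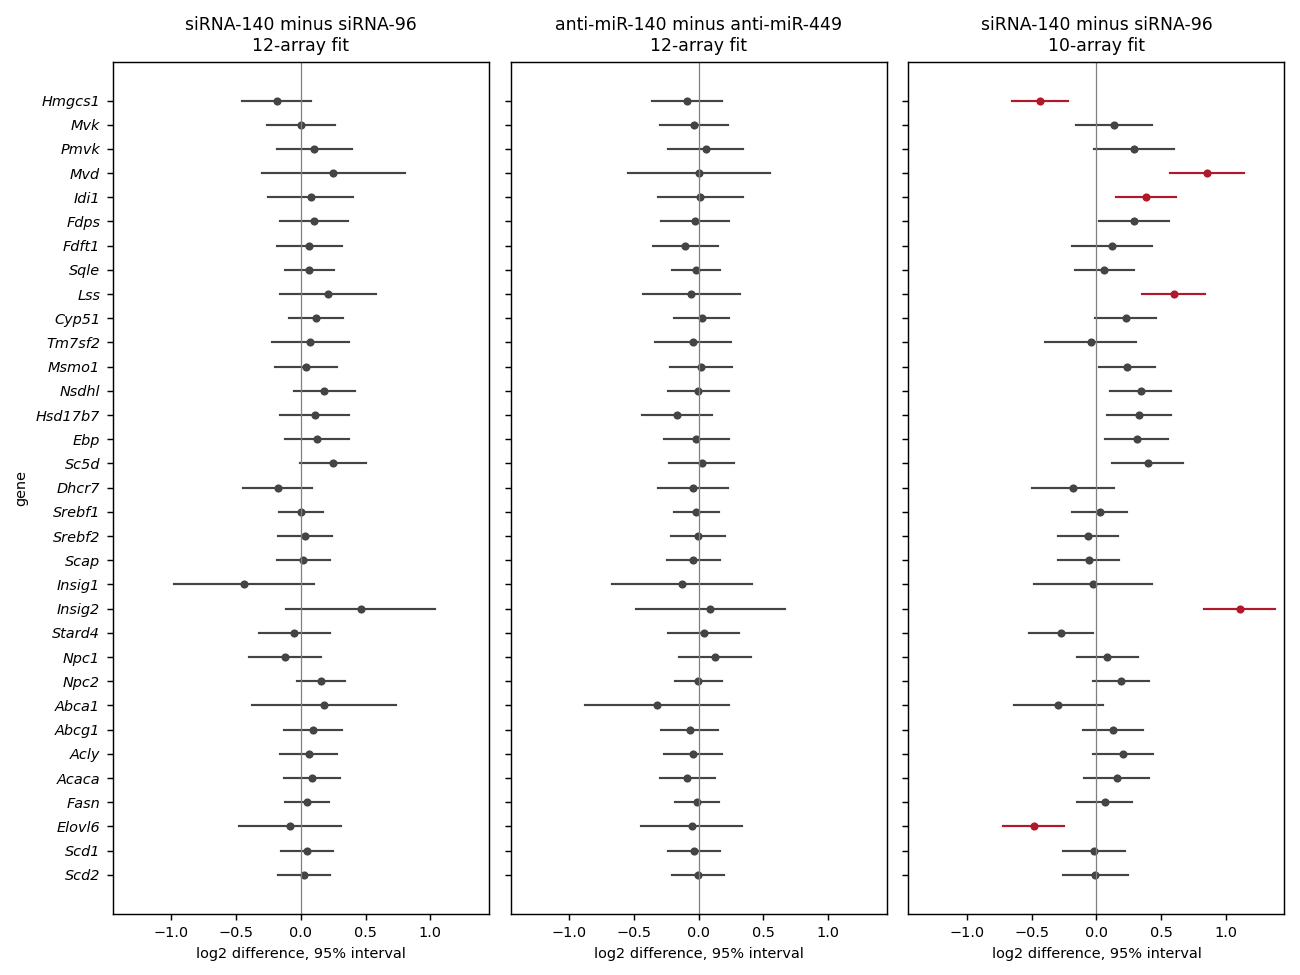
Log2 difference of each of the 33 measured members (points) with its 95% limma interval (lines), for siRNA-140 minus siRNA-96 and anti-miR-140 minus anti-miR-449 over 12 arrays and for the siRNA comparison over 10 arrays; red marks an adjusted p under 0.05. No member is red over 12 arrays, and 6 are red over 10 arrays, with Insig2 farthest to the right and Elovl6 farthest to the left.

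The members differed far more between arrays of the siRNA experiment than between arrays of the anti-miR experiment. A member's range, its highest minus its lowest value over 6 arrays, had a median of 0.46 in the siRNA experiment and 0.17 in the anti-miR experiment. Over all probe sets these medians were 0.43 and 0.31, and over the brighter ones, those at or above the median mean, 0.46 and 0.26. The range was wider in the siRNA experiment for 30 of 33 members (90.9%), beside 70% of all probe sets and 82.4% of the brighter ones. The 3 exceptions were Srebf1, which encodes SREBP-1, Fasn, the fatty acid synthase, and Scd1, a stearoyl-CoA desaturase. Insig1 had the widest siRNA range at 1.40 and Srebf1 the narrowest at 0.06. Only 1.12% of all probe sets had a wider siRNA range than Insig1, 1.16% than Insig2 and 1.38% than Abca1. In the anti-miR experiment the ranges ran from 0.08 to 0.73, with Abca1 the widest.

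**Figure D2:**
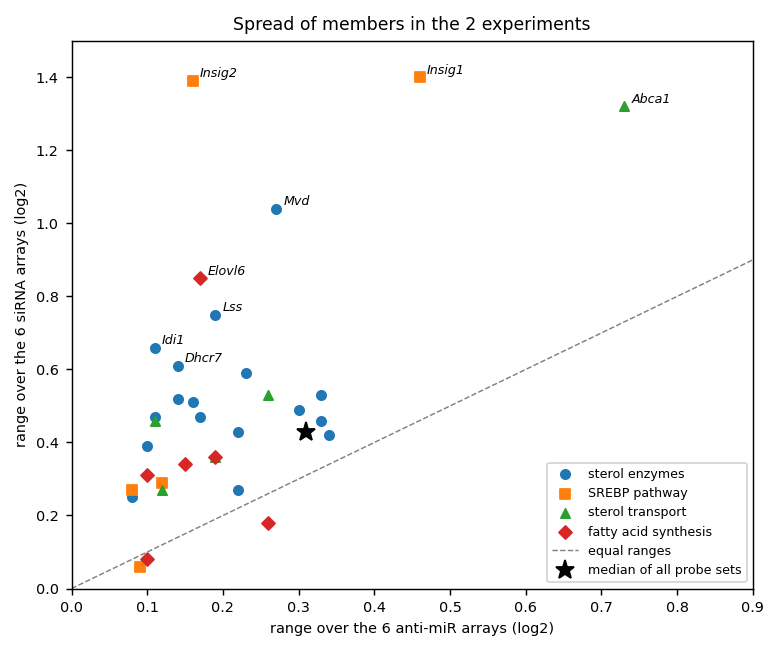
Range over the 6 siRNA arrays (vertical axis, log2 units) against the range over the 6 anti-miR arrays (horizontal axis, log2 units); each point is a measured member and the star marks the median of all probe sets, 0.43 and 0.31. All but 3 members, Srebf1, Fasn and Scd1, have the wider range in the siRNA experiment, and Insig1, Insig2 and Abca1 lie farthest out.

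In many members the siRNA arrays split otherwise than by label. For 14 of 33 members (42.4%), siRNA-140 replicates 1 and 2 lay wholly apart from siRNA-96 replicates 2 and 3, with siRNA-96 replicate 1 nearer the former pair and siRNA-140 replicate 3 nearer the latter. The same held for 20.8% of all probe sets and 32.7% of the brighter ones. The 10 members that were high in siRNA-140 replicates 1 and 2 and siRNA-96 replicate 1 were Pmvk, Mvd, Idi1, Fdps, Lss, Msmo1, Hsd17b7, Ebp, Insig2 and Acly, of which 8 are sterol enzymes. The 4 that were low there were Hmgcs1, Stard4, Abca1 and Elovl6. Interferon response genes split the same arrays the other way. The mean of the 8 measured genes of a list of 10 was 4.29, 4.39 and 6.675 for siRNA-140 and 4.54, 7.92 and 8.51 for siRNA-96, and it was 3.63 to 4.23 in the anti-miR arrays. Their part in the members' split was not tested. The RNA came from whole cultures, so fewer cells of one kind and less RNA per cell cannot be told apart.

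**Figure D3:**
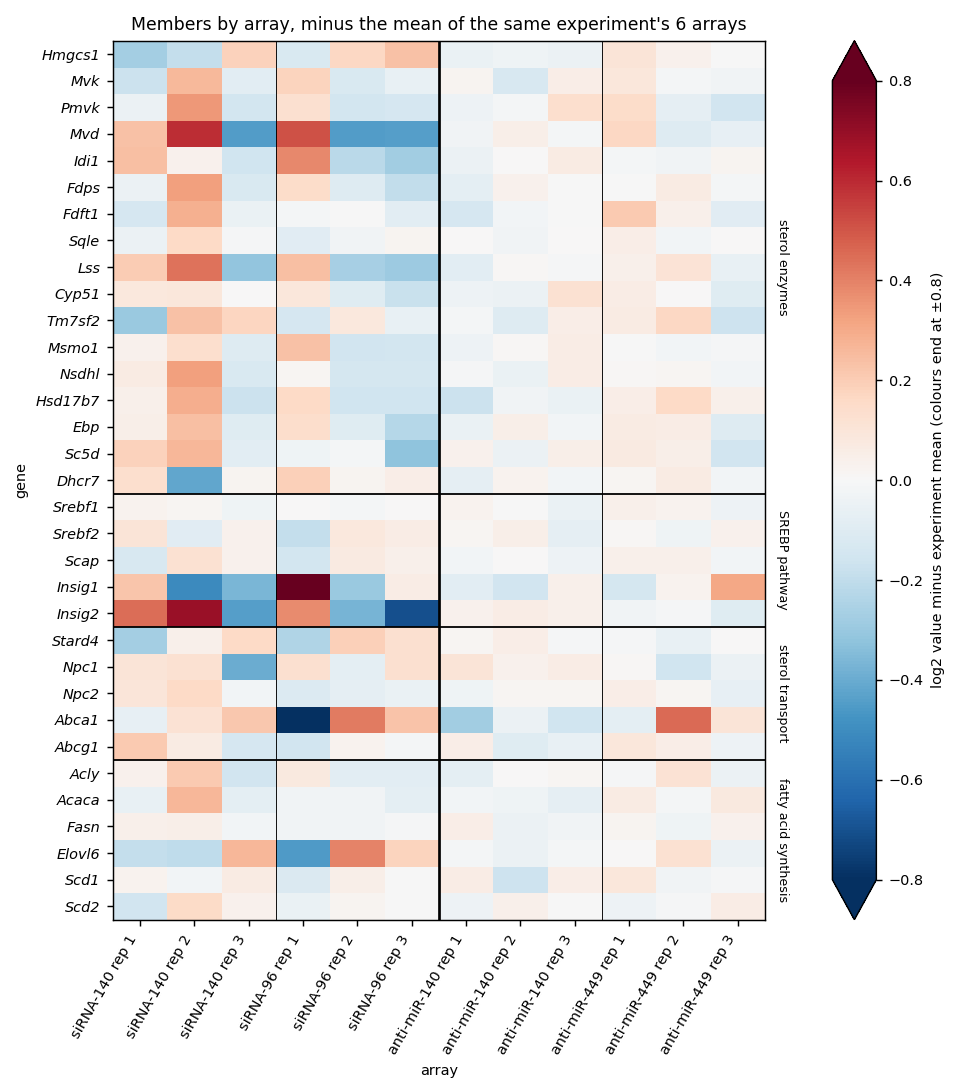
Heat map of the 33 measured members (rows, by role) over the 12 arrays (columns), coloured by log2 value minus the gene's mean over the 6 arrays of that experiment. The sterol enzymes are mostly high in siRNA-140 replicate 2 and siRNA-96 replicate 1 and low in siRNA-140 replicate 3 and siRNA-96 replicates 2 and 3, while the anti-miR columns are nearly flat.

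Without the 2 arrays set aside, 6 members were called between siRNA-140 and siRNA-96 in the 10-array limma fit. Mvd, Lss, Idi1 and Insig2 were higher with siRNA-140, 12.1% of members against 5.13% of all probe sets and 9.37% of the brighter ones. Hmgcs1 and Elovl6 were lower, 6.06% of members against 3.85% of all probe sets and 6.83% of the brighter ones. With the 4 remaining siRNA arrays fitted alone, 2 members were called higher, Insig2 and Mvd, against 2.02% of all probe sets, and 0 lower against 1.85%. The members' median difference in the 10-array fit was 0.13, beside 0.035 over all probe sets, and that of the sterol enzymes was 0.29, with 14 of 17 above 0. The share of called members is read only against these backgrounds, which were themselves far above the 0% of the full set of arrays.

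Among the sterol enzymes, Mvd, the mevalonate diphosphate decarboxylase, showed the widest siRNA range. Its values were 7.11, 7.47 and 6.43 for siRNA-140 and 7.39, 6.43 and 6.44 for siRNA-96. The high arrays were siRNA-140 replicates 1 and 2 and siRNA-96 replicate 1, and the remaining 3 were almost equal, so the groups overlapped. The difference over 12 arrays was 0.25 ± 0.26 (SE), with a 95% interval of -0.30 to 0.80. In the 10-array fit it was 0.855 ± 0.13 (SE) at an adjusted limma p of 0.00118, and 0.0152 with the 4 siRNA arrays alone. A second Mvd probe set differed by 0.605 in that fit, at an adjusted limma p of 0.00334. In the anti-miR experiment Mvd measured 7.08, 7.15 and 7.09 under anti-miR-140 and 7.27, 7.0 and 7.04 under anti-miR-449. Those groups overlapped and lay within a narrow band.

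Lss, lanosterol synthase, closes squalene epoxide into the first sterol. It measured 8.79, 9.02 and 8.27 for siRNA-140 and 8.83, 8.32 and 8.30 for siRNA-96. As for Mvd, siRNA-96 replicate 1 sat with the siRNA-140 arrays and siRNA-140 replicate 3 with the siRNA-96 arrays. The difference was 0.21 ± 0.17 (SE) over 12 arrays and 0.595 ± 0.11 (SE) over 10, where the adjusted limma p was 0.00444. It was 0.0553 with the 4 siRNA arrays alone, and the other 2 Lss probe sets, at -0.26 and 0.23, were not called in the 10-array fit (adjusted p of 0.413 and 0.616). The anti-miR values were 8.63, 8.72 and 8.70 under anti-miR-140 and 8.75, 8.82 and 8.65 under anti-miR-449, and these groups overlapped.

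Idi1, isopentenyl diphosphate isomerase, gave 10.04, 9.83 and 9.64 for siRNA-140 and 10.18, 9.58 and 9.52 for siRNA-96. Here too the upper 3 arrays were siRNA-140 replicates 1 and 2 and siRNA-96 replicate 1. The difference was 0.08 ± 0.15 (SE) over 12 arrays and 0.385 ± 0.11 (SE) over 10, with an adjusted limma p of 0.0398 that moved to 0.0863 after a further quantile normalization, to 0.0711 after median centring and to 0.233 with 4 arrays. The anti-miR values of this probe set spanned only a narrow band. They read 10.38, 10.43 and 10.49 under anti-miR-140 and 10.41, 10.40 and 10.45 under anti-miR-449. The second Idi1 probe set, at 0.315, was not called in the 10-array fit (adjusted limma p of 0.168). All its anti-miR-140 arrays were above all its anti-miR-449 arrays, by 0.25 ± 0.13 (SE) over 12 arrays (limma p of 0.0756). Over the 6 anti-miR arrays alone the limma p was 0.0203 (adjusted 0.974).

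Hmgcs1, the HMG-CoA synthase at the head of the sterol branch, ran against these enzymes. Its values were 10.06, 10.14 and 10.52 for siRNA-140 and 10.21, 10.50 and 10.57 for siRNA-96. The 2 lowest arrays were siRNA-140 replicates 1 and 2, followed by siRNA-96 replicate 1. The difference was -0.19 ± 0.13 (SE) with an interval of -0.46 to 0.08 over 12 arrays. In the 10-array fit it was -0.435 ± 0.10 (SE) at an adjusted limma p of 0.0143, and the adjusted p was 0.147 with 4 arrays. The other 4 Hmgcs1 probe sets differed by -0.235 to -0.01 and were not called. With the anti-miRs Hmgcs1 measured 10.98, 11 and 10.99 under anti-miR-140 and 11.14, 11.07 and 11.03 under anti-miR-449. All 3 anti-miR-140 arrays were below all 3 anti-miR-449 arrays, with a difference of -0.09 ± 0.13 (SE) in the 12-array fit, where the adjusted limma p was 1. The other 4 probe sets differed by 0.06 to 0.16 in the opposite direction.

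Late enzymes of the branch had smaller ranges than Mvd, Lss and Idi1. For Sc5d and Nsdhl, siRNA-96 replicate 1 lay nearer its own group's mean, taken over replicates 2 and 3. It lay farther from that of siRNA-140 replicates 1 and 2. Sc5d, the sterol C5 desaturase, had the members' smallest unadjusted p in the siRNA comparison and measured 8.75, 8.83 and 8.48 for siRNA-140 and 8.53, 8.55 and 8.24 for siRNA-96. The highest were siRNA-140 replicates 2 and 1, and siRNA-140 replicate 3 fell inside the siRNA-96 values. The difference was 0.25 ± 0.12 (SE) with a limma p of 0.0555 (adjusted 0.88), and 0.395 ± 0.13 (SE) in the 10-array fit with an adjusted p of 0.0737. In the anti-miR arrays Sc5d read 9.22, 9.14 and 9.23 under anti-miR-140 and 9.26, 9.23 and 9.03 under anti-miR-449, with overlap. Nsdhl, which removes a methyl group from the sterol ring, gave 9.82, 10.08 and 9.63 for siRNA-140 and 9.77, 9.61 and 9.61 for siRNA-96. Its top array was siRNA-140 replicate 2, and siRNA-140 replicate 3 lay among the siRNA-96 values. The difference was 0.18 ± 0.11 (SE) over 12 arrays and 0.34 ± 0.11 (SE) over 10, where the adjusted limma p was 0.0802. The Nsdhl values with the anti-miRs were 10.12, 10.08 and 10.19 under anti-miR-140 and 10.14, 10.15 and 10.11 under anti-miR-449, again with overlap.

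Hsd17b7, a keto reductase acting at the same stage, had the smallest unadjusted p of the anti-miR comparison. It measured 7.91, 8.05 and 8.03 under anti-miR-140 and 8.13, 8.24 and 8.12 under anti-miR-449. Every anti-miR-140 array was below every anti-miR-449 array, though the nearest 2 differed little. The difference was -0.17 ± 0.12 (SE) with a limma p of 0.201 (adjusted 1), and the other 3 Hsd17b7 probe sets differed by 0.08 to 0.22 in the opposite direction. The siRNA values were 8.04, 8.29 and 7.83 for siRNA-140 and 8.16, 7.84 and 7.84 for siRNA-96. They split by array like those of Mvd, and the 10-array difference of 0.325 ± 0.11 (SE) had an adjusted limma p of 0.108. Another Hsd17b7 probe set was called in that fit, at 0.645 and an adjusted limma p of 0.0119. Those at 0.45 and -0.07 were not called (adjusted p of 0.0587 and 0.826). Fdft1, the squalene synthase, measured 9.34, 9.76 and 9.42 for siRNA-140 and 9.46, 9.47 and 9.39 for siRNA-96. Only siRNA-140 replicate 2 stood apart, above the rest. With the anti-miRs Fdft1 read 9.79, 9.90 and 9.92 under anti-miR-140 and 10.13, 9.96 and 9.83 under anti-miR-449. The highest was anti-miR-449 replicate 1 and the groups overlapped, with a difference of -0.10 ± 0.12 (SE).

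The other 9 sterol enzymes were Mvk, Pmvk, Fdps, Sqle, Cyp51, Tm7sf2, Msmo1, Ebp and Dhcr7, which span the pathway from mevalonate kinase to the final reductions. For the probe set read per gene, their 12-array siRNA differences ran from -0.18 for Dhcr7 to 0.13 for Ebp, the sterol isomerase. Of these, 0 were called. Dhcr7, the reductase that yields cholesterol, measured 7.41, 6.86 and 7.30 for siRNA-140 and 7.47, 7.30 and 7.33 for siRNA-96. A single low array, siRNA-140 replicate 2, set its range. That array was the highest of the 6 for Mvd, Lss, Fdft1, Nsdhl, Hsd17b7 and Sc5d. The anti-miR differences of these 9 enzymes lay between -0.043 and 0.053, and 0 were called.

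As a group, the 17 sterol enzymes averaged 0.01, 0.20 and -0.09 for siRNA-140 and 0.12, -0.10 and -0.14 for siRNA-96, each relative to the gene's mean over the 6 siRNA arrays. The groups interleaved. In the anti-miR arrays the same average stayed within -0.05 and 0.07.

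**Figure D4:**
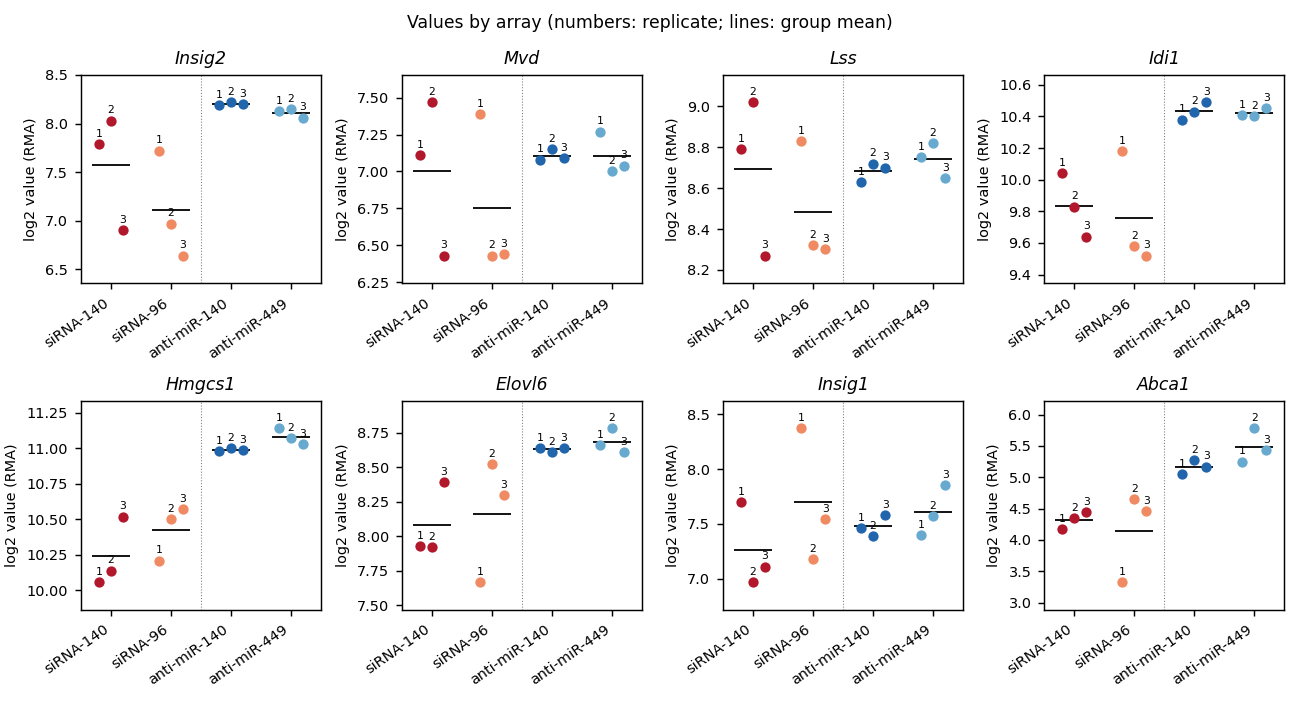
Log2 RMA values of Insig2, Mvd, Lss, Idi1, Hmgcs1, Elovl6, Insig1 and Abca1 in each array (points, by group) with group means (lines). In the siRNA groups 1 array of each group lies with the arrays of the other for Insig2, Mvd, Lss and Idi1, and the anti-miR groups are tight for all but Insig1 and Abca1.

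In the sensing machinery, Insig2 and Insig1 had wide ranges in the siRNA experiment, while the SREBP genes and Scap had ranges of 0.06 to 0.29. Insig2 encodes an INSIG protein that retains SCAP. It measured 7.79, 8.03 and 6.90 for siRNA-140 and 7.72, 6.97 and 6.64 for siRNA-96. siRNA-140 replicates 1 and 2 and siRNA-96 replicate 1 were high, and the other 3 arrays were low with a wide gap between. Over 12 arrays the difference was 0.46 ± 0.27 (SE), with an interval of -0.11 to 1.04 and a limma p of 0.105 (adjusted 0.88). In the 10-array fit it was 1.105 ± 0.13 (SE), with an interval of 0.83 to 1.38 and an adjusted limma p of 0.000114, and with the 4 siRNA arrays alone the adjusted p was 0.00471. Its other 2 probe sets differed by 1.31 and 1.335 in the 10-array fit, at adjusted limma p of 4.3e-05 and 5.1e-05. So all 3 Insig2 probe sets were called in that fit.

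With the anti-miRs Insig2 read 8.19, 8.22 and 8.20 under anti-miR-140 and 8.13, 8.15 and 8.06 under anti-miR-449. Each anti-miR-140 array was above each anti-miR-449 array, but by little. The difference was 0.09 ± 0.27 (SE) with an interval of -0.48 to 0.66 over 12 arrays, and 0.09 ± 0.07 (SE) with an interval of -0.06 to 0.24 over the 6 anti-miR arrays alone, which includes 0. The difference of the 2 comparisons for Insig2 was 1.015 ± 0.16 (SE) in the 10-array fit, at an adjusted limma p of 0.00298. Mvd, at 0.85 ± 0.17 (SE), and Lss, at 0.65 ± 0.14 (SE), were the other 2 members called there (adjusted p of 0.0126 and 0.022), which makes 3 of 33 against 4.41% of all probe sets.

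Insig1, the gene of the other INSIG protein, followed another course. Its values were 7.70, 6.97 and 7.11 for siRNA-140 and 8.37, 7.18 and 7.54 for siRNA-96. A single array, siRNA-96 replicate 1, was highest, with siRNA-140 replicate 1 next, and the groups overlapped. The difference was -0.44 ± 0.25 (SE) with an interval of -0.98 to 0.10, and without the 2 arrays set aside it was -0.025 ± 0.21 (SE). In the anti-miR arrays Insig1 measured 7.46, 7.39 and 7.58 under anti-miR-140 and 7.40, 7.57 and 7.85 under anti-miR-449, with overlap and with anti-miR-449 replicate 3 highest. Srebf2, the gene of SREBP-2 that drives the sterol enzymes, measured 9.14, 8.95 and 9.07 for siRNA-140 and 8.85, 9.12 and 9.10 for siRNA-96. siRNA-96 replicate 1 was its lowest array and the others lay close together. With the anti-miRs it read 9.35, 9.38 and 9.26 under anti-miR-140 and 9.34, 9.30 and 9.37 under anti-miR-449, and these groups overlapped as well. Srebf1 and Scap differed by 0.00 and 0.02 in the siRNA comparison and by -0.02 and -0.04 in the anti-miR comparison, and neither was called.

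Among the transport genes, Npc2 was the only member with no overlap between the siRNA groups. NPC2 binds cholesterol inside lysosomes and passes it to NPC1. It measured 12.12, 12.18 and 12 for siRNA-140 and 11.91, 11.95 and 11.97 for siRNA-96. The lowest siRNA-140 array lay just above the highest siRNA-96 array. The difference was 0.16 ± 0.08 (SE) with an interval of -0.03 to 0.34 and a limma p of 0.0864 (adjusted 0.88). Over 10 arrays it was 0.19 ± 0.10 (SE), with an adjusted limma p of 0.313. Over all members, 1 of 33 was higher with no overlap in siRNA-140 (3.5% of all probe sets) and 0 of 33 lower (2.6% of all probe sets). The anti-miR values of Npc2 were 12.28, 12.33 and 12.33 under anti-miR-140 and 12.37, 12.33 and 12.25 under anti-miR-449, which overlapped.

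Npc1, the lysosomal membrane transporter, gave 5.91, 5.93 and 5.41 for siRNA-140 and 5.94, 5.73 and 5.94 for siRNA-96. Only siRNA-140 replicate 3 was low. The difference was -0.12 ± 0.13 (SE) over 12 arrays and 0.085 ± 0.11 (SE) over 10 (adjusted limma p of 0.749), so the direction for Npc1 turned. In the anti-miR arrays it read 5.85, 5.78 and 5.81 under anti-miR-140 and 5.76, 5.59 and 5.70 under anti-miR-449. All anti-miR-140 arrays were above all anti-miR-449 arrays, by 0.13 ± 0.13 (SE) with a limma p of 0.332 (adjusted 1). Npc1 and Insig2 were the 2 of 33 members higher with no overlap in anti-miR-140, against 4.06% of all probe sets. Hmgcs1, Hsd17b7 and Acaca were the 3 of 33 lower with no overlap, against 4.34%.

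Abca1, the pump that exports cholesterol from the cell, measured 4.17, 4.35 and 4.45 for siRNA-140 and 3.33, 4.65 and 4.46 for siRNA-96. siRNA-96 replicate 1 was far below the rest, and the other 5 arrays lay close together. Over 12 arrays the difference was 0.18 ± 0.26 (SE), and over 10 arrays -0.295 ± 0.16 (SE) (adjusted limma p of 0.329), so its direction turned without the 2 arrays set aside. With the anti-miRs Abca1 read 5.05, 5.28 and 5.17 under anti-miR-140 and 5.25, 5.78 and 5.43 under anti-miR-449. The lowest 2 were anti-miR-140 arrays and the highest was anti-miR-449 replicate 2, with a small overlap. The difference was -0.32 ± 0.26 (SE) with an interval of -0.87 to 0.23 over 12 arrays, and -0.32 ± 0.13 (SE) with an interval of -0.62 to -0.02 over the 6 anti-miR arrays, where the limma p was 0.0409 and the adjusted p 0.974. Stard4, a carrier of cholesterol between membranes, measured 7.98, 8.29 and 8.41 for siRNA-140 and 8.01, 8.44 and 8.38 for siRNA-96. The lowest were siRNA-140 replicate 1 and siRNA-96 replicate 1. The difference was -0.05 ± 0.13 (SE) over 12 arrays and -0.275 ± 0.11 (SE) over 10, where the adjusted limma p was 0.188, or 0.0389 after a further quantile normalization, which called it. Its anti-miR values were 8.57, 8.61 and 8.55 under anti-miR-140 and 8.55, 8.50 and 8.56 under anti-miR-449, with overlap. Abcg1, a partner of Abca1 in export, differed by 0.09 and -0.07 in the siRNA and anti-miR comparisons and was not called.

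In fatty acid synthesis, Elovl6, the elongase of palmitate, had the widest siRNA range. It measured 7.93, 7.92 and 8.39 for siRNA-140 and 7.67, 8.52 and 8.30 for siRNA-96. The low arrays were siRNA-140 replicates 1 and 2 and siRNA-96 replicate 1, so the split was that of Insig2 turned over. The difference was -0.08 ± 0.18 (SE) with an interval of -0.47 to 0.31 over 12 arrays, and -0.485 ± 0.11 (SE) over 10 arrays at an adjusted limma p of 0.0136. With the 4 siRNA arrays alone the adjusted p was 0.118, and its other 2 probe sets, at -0.275 and 0.37, were not called in the 10-array fit. In the anti-miR arrays Elovl6 read 8.64, 8.61 and 8.64 under anti-miR-140 and 8.66, 8.78 and 8.61 under anti-miR-449. They overlapped.

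Acly, which makes the cytosolic acetyl-CoA that both branches use, measured 10.93, 11.10 and 10.74 for siRNA-140 and 10.97, 10.81 and 10.81 for siRNA-96. siRNA-140 replicate 2 was highest and siRNA-140 replicate 3 lowest, with the siRNA-96 arrays between. With the anti-miRs it read 10.97, 11.05 and 11.06 under anti-miR-140 and 11.04, 11.16 and 11 under anti-miR-449, with overlap. Acaca, the acetyl-CoA carboxylase that commits carbon to fatty acids, measured 8.24, 8.56 and 8.22 for siRNA-140 and 8.27, 8.27 and 8.22 for siRNA-96. Only siRNA-140 replicate 2 stood above the rest. The anti-miR values were 8.51, 8.50 and 8.46 under anti-miR-140 and 8.60, 8.52 and 8.61 under anti-miR-449, and here no anti-miR-140 array reached the anti-miR-449 values, with a difference of -0.09 ± 0.10 (SE) (limma p of 0.396, adjusted 1). Fasn, Scd1 and Scd2 differed by 0.02 to 0.05 in the siRNA comparison and by -0.037 to -0.0033 in the anti-miR comparison, and none of them was called.

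The promoters of the 6 members called in the 10-array fit are shown because those genes split the siRNA arrays in the same way, 4 one way and 2 the other. The windows are from RefSeq on GRCm38.p6 and run 5′ to 3′ on the gene's strand, from 250 bases before to 50 bases after the start, with the gene's first window where there were several. Capitals mark the CCAAT box (CCAAT or its reverse ATTGG), the core of the sterol regulatory element (TCACNCCAC, either strand) and the E-box (CACGTG), and the marked motifs did not overlap in these windows. They lie at chr13:119690101-119690400 on the plus strand for Hmgcs1, chr8:122443373-122443672 on the minus strand for Mvd, chr13:8885356-8885655 on the plus strand for Idi1, chr10:76531355-76531654 on the plus strand for Lss, chr1:121332540-121332839 on the minus strand for Insig2 and chr3:129532136-129532435 on the plus strand for Elovl6.
Hmgcs1: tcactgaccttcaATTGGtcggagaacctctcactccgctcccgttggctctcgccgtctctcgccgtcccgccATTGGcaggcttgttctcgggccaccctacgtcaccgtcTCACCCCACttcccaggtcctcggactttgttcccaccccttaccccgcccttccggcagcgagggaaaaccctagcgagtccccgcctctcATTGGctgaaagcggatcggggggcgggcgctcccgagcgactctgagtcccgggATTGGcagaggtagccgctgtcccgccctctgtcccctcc
Mvd: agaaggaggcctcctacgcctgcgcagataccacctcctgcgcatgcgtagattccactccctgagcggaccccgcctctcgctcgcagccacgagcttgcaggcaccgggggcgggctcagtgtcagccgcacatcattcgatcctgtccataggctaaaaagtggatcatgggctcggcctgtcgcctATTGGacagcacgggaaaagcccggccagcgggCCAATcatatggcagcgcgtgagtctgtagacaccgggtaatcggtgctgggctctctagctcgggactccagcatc
Idi1: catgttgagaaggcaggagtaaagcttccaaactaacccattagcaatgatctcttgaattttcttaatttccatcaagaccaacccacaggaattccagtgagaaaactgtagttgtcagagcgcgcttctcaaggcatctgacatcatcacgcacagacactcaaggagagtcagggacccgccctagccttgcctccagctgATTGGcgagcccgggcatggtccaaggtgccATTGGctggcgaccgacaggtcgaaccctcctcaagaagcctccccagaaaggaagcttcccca
Lss: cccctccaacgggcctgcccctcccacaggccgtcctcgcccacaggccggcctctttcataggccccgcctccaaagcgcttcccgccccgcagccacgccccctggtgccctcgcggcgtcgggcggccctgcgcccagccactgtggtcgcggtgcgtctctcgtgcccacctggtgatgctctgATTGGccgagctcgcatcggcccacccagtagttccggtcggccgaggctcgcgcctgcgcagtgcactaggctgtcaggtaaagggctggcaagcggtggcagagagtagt
Insig2: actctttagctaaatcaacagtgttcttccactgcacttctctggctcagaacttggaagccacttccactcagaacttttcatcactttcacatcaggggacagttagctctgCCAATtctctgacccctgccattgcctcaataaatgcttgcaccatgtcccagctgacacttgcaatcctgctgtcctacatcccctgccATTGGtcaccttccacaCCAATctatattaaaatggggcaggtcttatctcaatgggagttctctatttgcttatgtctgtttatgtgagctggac
Elovl6: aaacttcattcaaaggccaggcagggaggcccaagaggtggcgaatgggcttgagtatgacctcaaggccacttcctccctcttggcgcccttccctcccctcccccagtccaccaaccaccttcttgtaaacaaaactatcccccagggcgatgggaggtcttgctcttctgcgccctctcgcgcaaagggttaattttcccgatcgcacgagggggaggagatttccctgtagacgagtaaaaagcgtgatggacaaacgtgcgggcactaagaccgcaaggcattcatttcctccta

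Of the 33 measured members 25 had a promoter in the table. SREBP binds the sterol regulatory element, and NF-Y, its usual partner, binds the CCAAT box. The sterol element core stood in 1 of the 25, Hmgcs1, beside 1.44% of 27025 genes with a window. The CCAAT box stood in 21 of 25 (84%), beside 41.1% of all genes, the GC box GGGCGG on either strand in 21 of 25 (84%) beside 38.2%, and the E-box in 6 of 25 (24%) beside 8.09%. The Hmgcs1 window held 4 CCAAT boxes, that of Insig2 held 3, those of Mvd and Idi1 held 2 each and that of Lss held 1, while the Elovl6 window held none of the marked motifs. The other 2 Insig2 windows held none of them either. Both the genes that were higher and Hmgcs1, which was lower, thus had CCAAT boxes. A match describes letters in a window and was not tied to binding in these cells. The shares over all genes took in genes of any level, while 32 of the 33 measured members were at or above the median. Genes of a like level were not counted apart, so these shares do not show a motif to be particular to this pathway.

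The wider pathway likewise gave no call over 12 arrays, but it gave more calls than the members over 10 arrays. A second list of 32 genes around SREBP processing, lipid uptake and fatty acid modification had 30 measured, and 0 of them were called in either 12-array comparison. At an unadjusted limma p under 0.05, 2 of the 30 passed in the siRNA comparison, near the 5.09% of all probe sets: Mbtps2, the site-2 protease that releases SREBP, at 0.32 ± 0.11 (SE) (p of 0.011, adjusted 0.88), and Lpin1, a phosphatidate phosphatase, at 0.31 ± 0.13 (SE) (p of 0.0327, adjusted 0.88). In the anti-miR comparison 0 of 30 passed, beside 2.27% of all probe sets. Without the 2 arrays set aside, 8 of the 30 were called higher with siRNA-140 (Fads1, Mbtps2, Erlin1, Lpcat3, Scarb1, Vldlr, Lrp1 and Lpin1). Another 3 were called lower (Elovl1, Mylip and Gpam). Of the 33 members, 4 were called higher and 2 lower in the same fit. The backgrounds were the same 5.13% and 3.85% of all probe sets, and 9.37% and 6.83% of the brighter ones. This list too was written with earlier results of these data known.

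Of the genes called there, 3 were picked out after their values were seen. Erlin1, an endoplasmic reticulum protein that holds back SREBP activation, measured 9.09, 9.15 and 8.09 for siRNA-140 and 9.09, 8.15 and 8.13 for siRNA-96. Scarb1, the HDL receptor, measured 7.01, 6.93 and 6.37 for siRNA-140 and 6.95, 6.19 and 6.16 for siRNA-96. Both were high in siRNA-140 replicates 1 and 2 and siRNA-96 replicate 1, the arrays in which Insig2 was high. Mylip, a ubiquitin ligase that lowers lipoprotein receptors, gave 7.37, 7.52 and 8.23 for siRNA-140 and 7.12, 8.29 and 8.11 for siRNA-96, and was low in those arrays. Their 10-array differences were 0.98 ± 0.10 (SE), 0.795 ± 0.10 (SE) and -0.755 ± 0.11 (SE) in that order, at adjusted limma p of 6.24e-05, 0.000253 and 0.000665. Over 12 arrays the 3 differed by 0.32 ± 0.27 (SE), 0.34 ± 0.20 (SE) and -0.13 ± 0.26 (SE), and none was called.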

How the data were processed

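RNA from C3H10T1/2 cells was measured on 12 Affymetrix arrays, 3 in each of 4 groups, and the array number limits the precision. The deposited log2 values were made with RMA (background correction, normalization between arrays and summary of probes), per the submitters' processing notes. Its version, and whether both experiments were normalized together, are not given in the sources used here. Of 45101 probe sets 64 array controls were left out, which left 45037 for the tests, dim ones included. Symbols came from the platform annotation (34945 probe sets with 1 symbol, 932 with several, 9160 with none, of which the last 2 kinds named no gene). Of the 34945, 34741 matched the RefSeq gene table of GRCm38.p6.

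A model of 4 group means over 12 arrays was fitted by limma 3.58.1 (R 4.3.3) with eBayes variances. The threshold was 0.05 on the p adjusted by Benjamini-Hochberg. Intervals are 95% limma intervals. The procedure was also run on simulated data with independent noise in each array. Those data held no arrays that moved with the other group, so they do not show how the fit handles such arrays. The members and gene lists were chosen with earlier results of these data known, so no list was tested as a set. Values in every array are given for the members with the 6 smallest unadjusted p in each comparison, for up to 3 members per role with the widest siRNA range and for Dhcr7, added after its values were seen. Replicate numbers were not taken to pair samples. Alternatives covered the arrays fitted, scaling, filter, variance model, array weights, replicate block, probe set rule and threshold. Scaling of the 10-array fit was added after seeing the data.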

Additional observations from a re-analysis of the deposited data

How the results depend on the processing

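With all arrays, 0 probe sets and 0 members were called in both comparisons under the within-experiment fit, and in both and their difference under both scalings, the filter on level, the trend with robust variances, the array weights and the mean of each gene's probe sets. With siRNA-96 replicate 1 and siRNA-140 replicate 3 left out, limma called 4043 probe sets and 6 members in the siRNA comparison over 10 arrays, and 1743 and 2 over the 4 siRNA arrays. Members called over 10 arrays were 6 after a further quantile normalization and 5 after median centring, both added after seeing the data. For the difference of the comparisons the 10 arrays gave 1985 probe sets and 3 members, and a member median of 0.1933 beside 0.0867. At an unadjusted p under 0.05 the counts were 2292 (siRNA), 1022 (anti-miR) and 1322 (difference). Leaving out each array in turn gave 0 to 36 probe sets in the siRNA comparison (36 without siRNA-96 replicate 1, 25 without siRNA-96 replicate 2), 0 to 1 in the difference (1 without siRNA-96 replicate 1), and 0 members throughout. The members' anti-miR median was 0.0067 with the mean of all probe sets and -0.045 to -0.005 with an array left out, lowest without anti-miR-449 replicate 3. Their siRNA median ran from -0.0033 to 0.11 in the same way. Of 396 member values with 1 array left out, 30 changed sign in the siRNA comparison and 34 in the anti-miR comparison, none of them called. The cause of these changes was not tested.

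With the replicate number as a block, 0 probe sets and 0 members were called in both comparisons and the difference, and the member medians stayed at 0.0667, -0.02 and 0.0867. Deviations of same-numbered arrays correlated at 0.568, -0.4 and 0.624 in the siRNA experiment and 0.0197, 0.204 and -0.137 in the anti-miR experiment, so the numbers were not taken as pairing, and not every array correlated best with its own number.

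Signal over background was not in the values used here, so whether Abcg1, the 1 member below the median mean, was above background was not tested.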
